A study of Oryza sativa with 12 samples.

Results

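Roots of OsERF106MZ-overexpressing rice seedlings (line OE1) were compared with roots of their wild type, TNG67, under normal (0 mM NaCl) conditions. The comparison used 3 OE1 and 3 TNG67 libraries, 6 of the 12 in the series, and all 25580 genes of the 0 mM NaCl table, of 26611 listed at either NaCl level. It includes 658 genes that the 150 mM NaCl table does not list. OE1 carries OsERF106MZ behind the constitutive 35S promoter of cauliflower mosaic virus in the TNG67 background. It was the only overexpressing line sequenced, so in these libraries an effect of OsERF106MZ cannot be told apart from other features of that line. By qPCR the study reported OsAO3, OsNPC3, OsMYB91, OsSPX-MFS1 and OsWRKY76 lower than in TNG67 in OE1 and in another line, OE3. Both groups were 7-day-old seedlings held for 24 h without added NaCl, and each library pooled the roots of several seedlings. The tissue is roots by the labels and belowground parts by the study's methods, although the submitters' design text names terrestrial parts. Recovered read totals lay between 16326661 and 18188746 in OE1 and between 16473262 and 17303572 in TNG67, and replicates correlated at 0.9855 to 0.9877 (Pearson's r of log2 reads). Whether the replicates came from separate cultures is not stated, so p-values measure the spread between these libraries.

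OsERF106MZ belongs to the AP2/ERF family of plant transcription factors, which bind short DNA elements, among them the GCC box, through an AP2 domain and link ethylene, abscisic acid (ABA), jasmonate and stress signals to gene expression. Rice roots take up water, nitrate, potassium, phosphate and silicon, lay down lignified barriers around their outer cell layers, and make diterpenoid phytoalexins and other defence compounds. The comparison asks which of these functions differ in OE1 roots before any salt is given.

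The transgene's own gene checked the labels. OsERF106MZ (Os08g0537900) had normalized read counts (reads over the size factor of their library) of 10262, 10125 and 9135 in the OE1 libraries, against 958, 921 and 749 in the TNG67 libraries, a log2 fold change of 3.49 ± 0.09 (standard error), and its value does not separate reads of the transgene from those of the native copy. Log2 fold changes are on the scale of log2(normalized count + 1), OE1 over TNG67, which understates the change of low genes. The labelled tissue was checked with 4 root genes. Lsi1 (Os02g0745100), the silicon influx channel of roots, had 20038, 19266 and 19086 in OE1, against 18125, 20119.6 and 15325 in TNG67, and Lsi2 (Os03g0107300), the silicon efflux transporter, had 23815, 23266 and 21749 in OE1, against 20774, 23926 and 17031 in TNG67. These marker values overlapped between the genotypes, as did those of RCc3 (Os02g0662000) and HKT1;5 (Os01g0307500), with log2 fold changes of 0.13, 0.17, 0.10 and 0.22, and none passed the test.

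A gene was called when its Benjamini-Hochberg adjusted p from limma was below 0.05 and its log2 fold change was beyond 1. By this rule 5.42% of all genes were called, 2.35% higher and 3.07% lower in OE1. Higher genes, 600 against 786 lower, made up 43.3% of the called genes. When the fold change was itself tested against the threshold (the treat test of limma), 112 higher and 67 lower genes passed, a share of 62.6% higher. The median log2 fold change over all genes was -0.02, and 47.4% of genes lay above 0. In 1379 of the 1386 called genes the OE1 and TNG67 libraries did not overlap, against 38.3% of all genes. Called genes had low levels, with a median normalized count of 35.8 for those higher and 36.9 for those lower, against 218 for all genes.

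The genes were grouped by their deposited descriptions into 67 lists, of which 33 held more called genes that were lower, 20 held more that were higher, 6 were even and 8 held none. Lower genes were most frequent, by share of members, in lists for diterpenoid synthesis (12 of 20), photosynthesis (30.4%), salicylate-type carboxyl methyltransferases (30.0% of 10), dirigent-type proteins (25.9%) and pathogenesis-related proteins (23.3%). The plot of called members by gene list shows these shares beside those over all genes, with no higher member in any of these lists except 1 among pathogenesis-related genes. Among lists of 40 or more members, the greatest share of higher genes was 9.09%, in NAC factors.

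**Figure D1:**
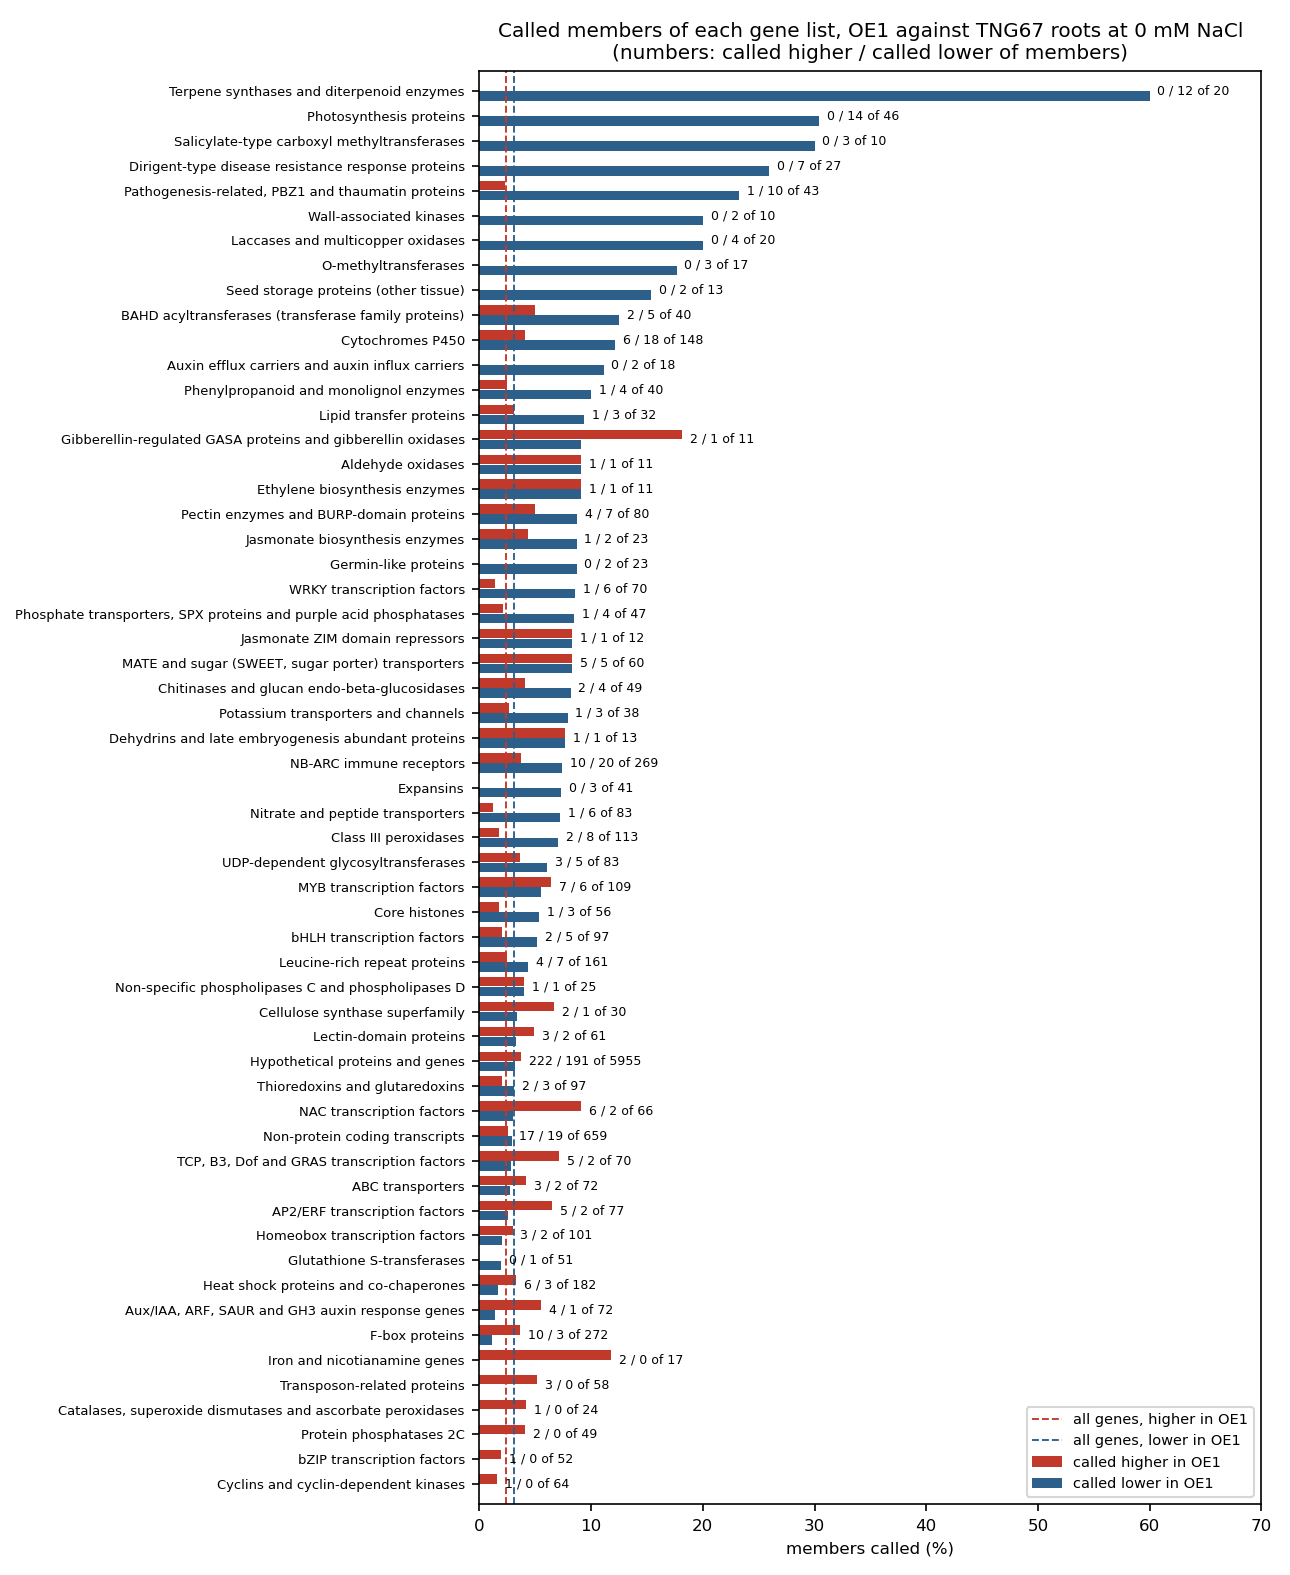
Share of members called higher (red) and lower (blue) in OE1 than in TNG67 roots at 0 mM NaCl, in percent, for each gene list of 10 or more members with a called gene. Dashed lines are the shares over all genes, 2.35% higher and 3.07% lower, and the longest bar is that of diterpenoid genes, 12 of 20 lower.

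Diterpenoid and other terpene enzymes formed the list with the largest share of lower genes. Rice makes momilactones and oryzalexins from copalyl diphosphates, which class II synthases form from geranylgeranyl diphosphate and which kaurene synthase-like enzymes and P450s then modify. Of 20 genes measured, 12 were lower, none was higher, and the median log2 fold change was -1.75, against -0.02 over all genes. Os04g0178300, the syn-copalyl diphosphate synthase that begins the momilactone branch, had 316, 113 and 277 in the OE1 libraries, against 961, 1114 and 1041 in the TNG67 libraries. Os04g0178400, described as a CYP99A1-like P450 with a nearby identifier, had 159, 48.5 and 158 in the OE1 libraries, against 820.4, 968 and 1089.7 in the TNG67 libraries. In both genes each OE1 library was below each TNG67 library, and OE1 replicate 2 was the lowest of all.

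These genes of chromosome 4 had log2 fold changes of -2.27 ± 0.45 and -3.15 ± 0.55, with adjusted p from limma of 0.0313 and 0.0234. Os04g0179700 nearby, the 9-beta-pimara-7,15-diene synthase of momilactone synthesis, was read at a low level of 5.52, 0 and 2.09 in OE1, against 8.95, 15.9 and 13.9 in TNG67, a log2 fold change of -2.32. Another nearby gene, Os04g0179200, a dehydrogenase gene by its description, had 25.4, 12.1 and 16.7 in OE1, against 32.5, 26.5 and 40.8 in TNG67, and was called without OE1 replicate 1 (-1.15) but not with all libraries. Oryzalexin S has its own branch, which starts from syn-copalyl diphosphate with stemar-13-ene synthase. For this step Os11g0474800 had 228, 150.4 and 196 in OE1, against 808, 1053 and 714 in TNG67, and Os11g0474900 had 61.8, 78.7 and 74.1 in OE1, against 295, 379 and 277 in TNG67. Neither gene's groups overlapped, and their log2 fold changes were -2.16 and -2.13. They have like descriptions and neighbouring identifiers, so reads may have been split between them.

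The ent-kaurene oxidase family divided. Os06g0568600, described as similar to ent-kaurene oxidase 1, fell to 3.31, 0 and 1.04 in OE1, against 39.2, 79.5 and 75.1 in TNG67, whereas Os06g0570100, a second ent-kaurene oxidase gene of chromosome 6, had 499, 486 and 575 in OE1, against 514, 474 and 522 in TNG67. The log2 fold changes were -4.92 ± 0.52 and 0.04 ± 0.09, and only the first passed the test. The highest level in the list belonged to Os04g0340300, the (S)-limonene synthase that makes a monoterpene. It had 482, 337 and 242 in OE1, against 1305, 1378 and 2289 in TNG67, a log2 fold change of -2.23. Low levels were read for a sesquiterpene synthase gene, Os08g0168400, and an ent-kaurene synthase 1A gene, Os12g0491800, both called lower.

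The 2 regulators whose descriptions name diterpenoid phytoalexins differed in direction. Os01g0196300, a bHLH factor of diterpenoid phytoalexin synthesis, had 71.7, 72.7 and 97.0 in OE1, against 197, 173 and 208 in TNG67, a log2 fold change of -1.26 ± 0.16 (adjusted p = 6.57e-05, limma). Os04g0637000, a TGA-type bZIP factor of the same pathway, had 3631, 3350.4 and 4224 in OE1, against 2471, 2798 and 2754 in TNG67, higher in every OE1 library by a log2 fold change of 0.48, within the fold threshold. The number of lower terpene genes depended on single libraries, with 8 without TNG67 replicate 1, 6 without TNG67 replicate 2 and 7 without TNG67 replicate 3, against 9 to 10 without an OE1 library. Os04g0178300 missed the adjusted p threshold without OE1 replicate 3 or any 1 TNG67 library (log2 fold change -2.45 to -2.21), and Os04g0178400 without OE1 replicate 1 or any 1 TNG67 library (-3.43 to -3.05), while Os04g0340300 missed it without OE1 replicate 2 or TNG67 replicate 2 (-2.34 to -2.23). Among the low genes, Os04g0179700 also lost its call without OE1 replicate 2, TNG67 replicate 2 or TNG67 replicate 3, and Os12g0491800 without any 1 library but OE1 replicate 1. Both also lost it with 12 libraries and with a pseudocount of 0.1, and Os12g0491800 with DESeq2.

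**Figure D2:**
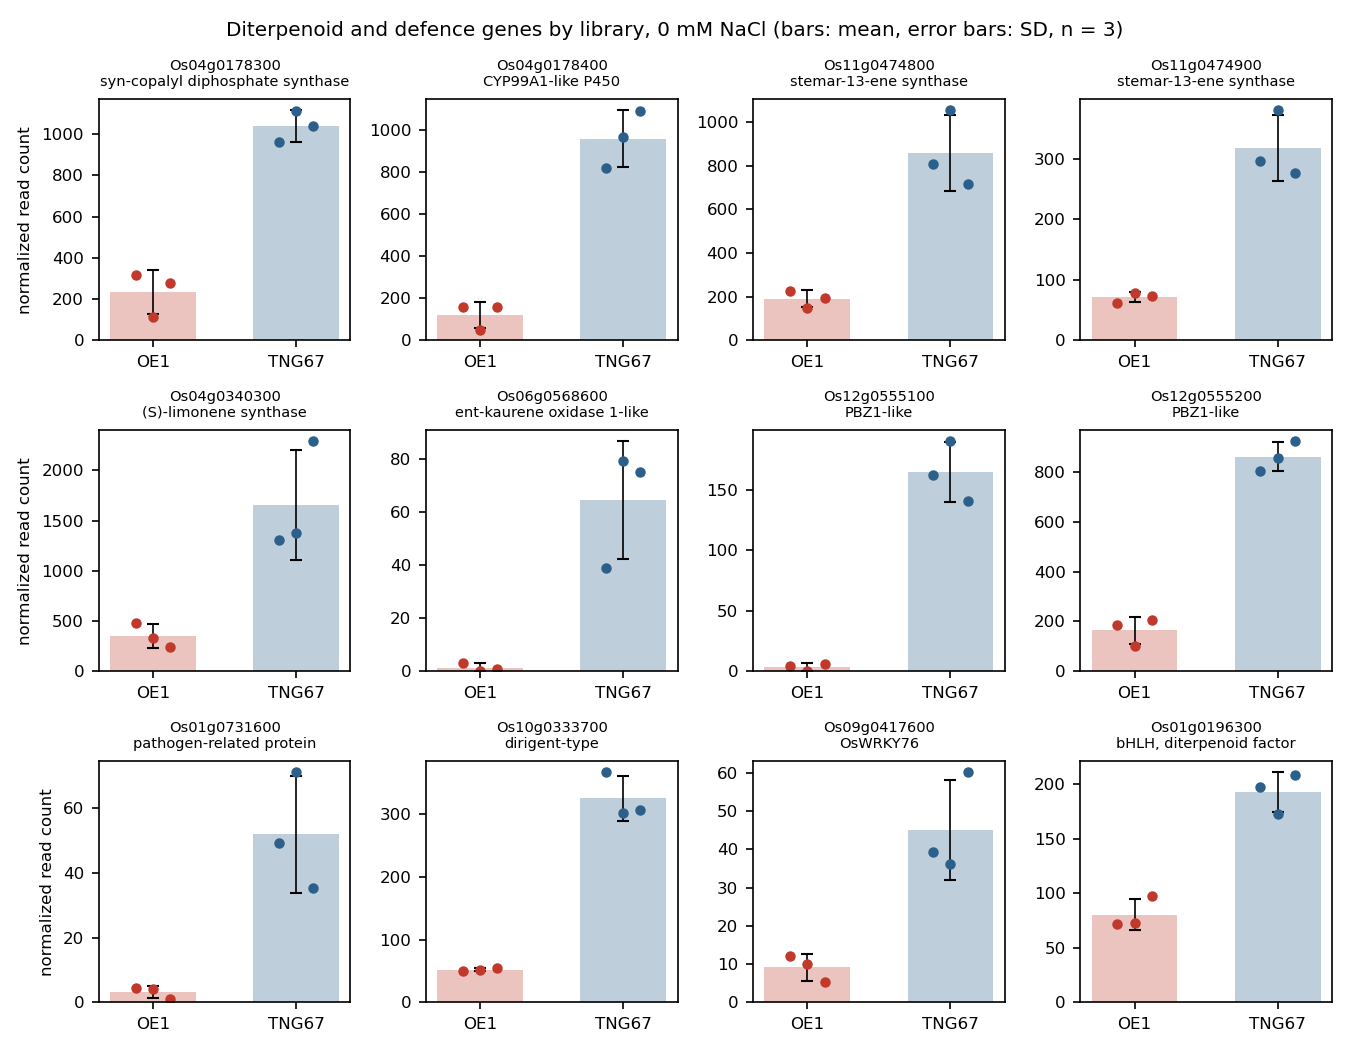
Normalized read counts of 12 diterpenoid and defence genes in the 3 OE1 libraries (red) and the 3 TNG67 libraries (blue) at 0 mM NaCl, with bars at the mean and error bars of 1 SD. In each panel all OE1 points lie below all TNG67 points, for example 316, 113 and 277 against 961, 1114 and 1041 for Os04g0178300.

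Pathogenesis-related proteins also held more lower than higher genes. Of 43 genes for PBZ1, thaumatin and other pathogenesis-related proteins, 10 were lower and 1 was higher, with a median log2 fold change of -0.34. PBZ1-type genes encode PR10 proteins, small intracellular proteins that rice makes after infection or probenazole treatment, and several stand side by side on chromosome 12. Os12g0555100 had 4.41, 0 and 6.26 in OE1, against 162, 189.7 and 141 in TNG67, and Os12g0555200 had 188, 103 and 204 in OE1, against 804, 856 and 921 in TNG67. Os12g0555000 had 1336, 1097 and 1501 in OE1, against 2589.8, 2544 and 3827 in TNG67. All 3 were separated between the genotypes, with log2 fold changes of -5.59, -2.43 and -1.17. The gene described as PBZ1 itself, Os12g0555500, had 102, 9.09 and 113 in OE1, against 197, 163 and 189.8 in TNG67, and did not pass the test (log2 fold change -1.91, adjusted p = 0.321, limma), with OE1 replicate 2 far below the other OE1 libraries. These neighbours resemble each other, and how shared reads were counted is not given in the sources used here.

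Os01g0731600, a pathogen-related protein gene, fell to 4.41, 4.04 and 1.04 in OE1, against 49.2, 71.0 and 35.4 in TNG67 (log2 fold change -3.74 ± 0.44). Thaumatin-like proteins, the PR5 family, moved in both directions. Os06g0691200 had 167, 203 and 159.6 in OE1, against 518, 386 and 423 in TNG67, while Os09g0536400 had 1738, 1410.2 and 1955 in OE1, against 735, 953 and 801 in TNG67. For both genes the groups were separate, with log2 fold changes of -1.32 and 1.03. The most abundant pathogenesis-related gene, JIOsPR10 (Os03g0300400), had a log2 fold change of -0.66, within the fold threshold, with its groups separate. Without OE1 replicate 1 the lower genes of this list numbered 6, and without OE1 replicate 2 the higher ones numbered 2. With a pseudocount of 0.1 Os12g0555100 missed the adjusted p threshold (log2 fold change -6.84). Os12g0555000 lost its call without OE1 replicate 1 or TNG67 replicate 3 (log2 fold change -1.19 and -0.98), and Os09g0536400 without OE1 replicate 3 or TNG67 replicate 1 (0.92 and 0.95).

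Dirigent-type disease resistance response proteins, which steer the coupling of monolignol radicals into lignans or lignin, had 7 lower and no higher genes among 27, with a median log2 fold change of -0.46. Os10g0333700 had 49.7, 51.5 and 55.3 in OE1, against 366, 302 and 306 in TNG67. Os10g0335000, described as a dirigent protein of lignin biosynthesis, had 1.10, 1.01 and 1.04 in OE1, against 42.5, 30.7 and 34.3 in TNG67. The groups of both genes were separate, at log2 fold changes of -2.61 ± 0.14 and -4.15 ± 0.42, and the OE1 values of Os10g0335000 are 1 read in each library, so the size of its difference rests on those single reads and on the pseudocount. Os07g0106700, similar to disease resistance response protein 206, followed at -2.46. The most abundant dirigent-type gene, Os11g0180000, had a log2 fold change of -0.51. Without TNG67 replicate 3 the list held 4 lower genes.

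Surface and intracellular immune receptors showed both directions. Among 269 NB-ARC genes, whose products sense pathogen effectors inside the cell, 10 were higher and 20 were lower, and the list's median log2 fold change was -0.01. Os06g0707350, similar to an NBS-LRR resistance protein, had 203, 254 and 197 in OE1, against 6.72, 4.24 and 5.36 in TNG67. Os11g0605100 had 1352, 1178 and 1103 in OE1, against 367, 431 and 413 in TNG67. Os07g0197500 had 16.6, 26.2 and 15.6 in OE1, against 107, 101 and 129 in TNG67. None of these overlapped between the genotypes, with log2 fold changes of 5.10, 1.58 and -2.50. Of 10 wall-associated kinases, which span the plasma membrane and bind the cell wall, 2 were lower, among them Os10g0180800, described as a negative regulator of blast resistance, at 65.1, 42.4 and 37.6 in OE1, against 182, 259 and 317 in TNG67 (log2 fold change -2.37 ± 0.23). Leucine-rich repeat proteins had 4 higher and 7 lower genes among 161, and a median log2 fold change of 0.03. Single libraries moved the higher counts, to 6 NB-ARC genes without TNG67 replicate 1, and to 1, 2 and 2 leucine-rich repeat genes without OE1 replicates 1, 2 and 3.

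Other defence enzymes were also split. Chitinases and glucanases, which cut fungal wall polymers, had 2 higher and 4 lower genes among 49. The chitinase gene Os02g0605900 had 178, 177 and 168 in OE1, against 52.6, 38.2 and 77.2 in TNG67, a log2 fold change of 1.68. Another chitinase gene, Os01g0687400, had 168, 143 and 139.8 in OE1, against 425, 372 and 471 in TNG67, a log2 fold change of -1.48. Germin-like protein 8-12 (Os08g0231400), described for disease resistance, fell to 849, 794 and 565 in OE1, against 2575, 1925 and 1691 in TNG67 (log2 fold change -1.49), the clearest of 2 lower germin-like genes among 23. Germin-like protein 8-3 (Os08g0189200), the most abundant of them, had 7012, 9181 and 7605 in OE1, against 10927, 12948 and 11224 in TNG67, within the fold threshold at -0.57. A pair of chloroplast lipoxygenase genes, Os08g0509100 and Os08g0508800, whose products oxidize polyunsaturated fatty acids, were lower by log2 fold changes of -2.50 and -2.49. The list of jasmonate synthesis enzymes was near balance, with 1 higher and 2 lower genes among 23 and a median of -0.17. At adjusted p below 0.05 alone it held 6 higher and 6 lower (26.1% each, against 8.99% and 12.6% over all genes). Tryptophan and aromatic amino acid decarboxylase genes, which open the route to serotonin and tryptamine compounds, were lower at Os08g0140500 with 29.8, 28.3 and 39.6 in OE1, against 112, 126 and 203 in TNG67 and at Os08g0140300 with a log2 fold change of -2.15. The germin-like list held 1 lower gene without OE1 replicates 1 or 3 or TNG67 replicates 2 or 3. The chitinase list held 1 higher gene without OE1 replicate 1 or TNG67 replicate 3 and 4 without TNG67 replicate 2.

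Photosynthesis genes were the second list with a large share of lower members. Roots of seedlings hold few chloroplasts, and these genes were read at low to moderate levels in both genotypes. Of 46 genes for light-harvesting proteins, photosystem subunits and enzymes of the Calvin cycle, 14 were lower and none was higher, with a median log2 fold change of -0.86. The summed normalized count of the list was 12088, 12478 and 7944 in the OE1 libraries, against 18069, 19958 and 25746 in the TNG67 libraries. OE1 replicate 3 was the lowest and TNG67 replicate 3 the highest, and the groups did not overlap. In 31 of the 46 genes each OE1 library was below each TNG67 library, against 21.5% of all genes, and 17 of the genes with separate groups were not called.

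Os01g0720500, a type I chlorophyll a/b-binding protein of the light-harvesting antenna, had 120.3, 107 and 104 in OE1, against 625, 763 and 799 in TNG67. Os07g0147500, the 10 kDa polypeptide of photosystem II, had 80.5, 87.8 and 59.5 in OE1, against 404, 501 and 740.1 in TNG67. Sedoheptulose-1,7-bisphosphatase (Os04g0234600), a regulated step of the Calvin cycle, had 11.0, 17.2 and 17.7 in OE1, against 99.6, 98.6 and 165 in TNG67. These OE1 levels were 15.2%, 13.8% and 12.6% of the TNG67 means, and the log2 fold changes were -2.71 ± 0.12, -2.81 ± 0.22 and -2.89 ± 0.27. The most abundant member, chlorophyll a-b binding protein 2 (CAB-2, Os01g0600900), had 1100.1, 1218 and 795 in OE1, against 2187, 2251 and 2615 in TNG67, a log2 fold change of -1.20. The 3 genes for the small subunit of ribulose bisphosphate carboxylase (RbcS), outside the list and picked after their values were seen, were lower by log2 fold changes of -1.08 (Os12g0291100), -1.72 (Os12g0291400) and -1.67 (Os12g0292400). The activase of the same enzyme, Os11g0707000, did not pass the test at 499.8, 530.0 and 209.7 in OE1, against 918, 1088 and 1519 in TNG67, where OE1 replicate 3 again had the lowest value.

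In these bulk samples fewer cells of a type and less RNA per cell cannot be told apart. The part that traces of green tissue in a library may have in these values was not tested. The 4 root markers given above overlapped between the genotypes, but they do not measure green tissue. The number of lower photosynthesis genes was 10 without OE1 replicate 3 and 9 without TNG67 replicate 3, the libraries at the ends of the range, and 13 to 17 without any other library. Os12g0291100 had a log2 fold change of -0.95 without OE1 replicate 3, and was not called with 12 libraries. Os11g0707000 was called without OE1 replicate 3, at -1.16, and also by DESeq2 and with 12 libraries. Fitting all 12 libraries together gave 9 lower photosynthesis genes. Seed storage proteins, markers of another tissue, had 2 lower genes among 13, with a median log2 fold change of -0.21, and 0 without TNG67 replicate 1.

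**Figure D3:**
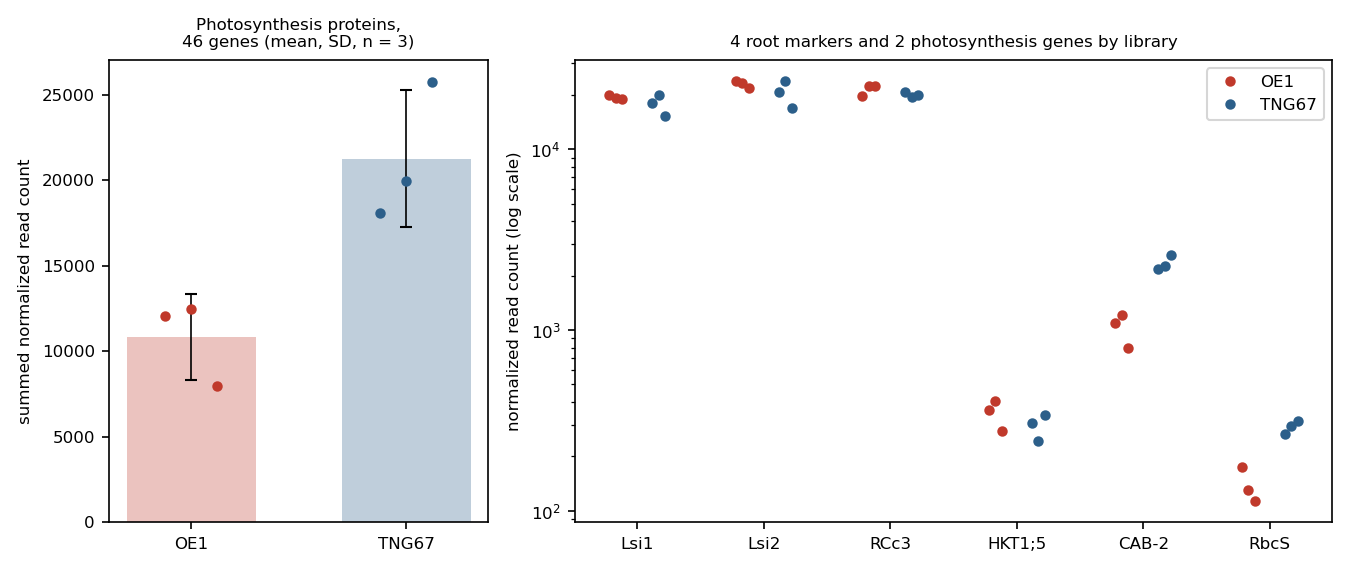
Left, summed normalized read count of the 46 photosynthesis genes in the 3 OE1 (red) and 3 TNG67 (blue) libraries, with bars at the mean and error bars of 1 SD, lying at 7944 to 12478 in OE1 and 18069 to 25746 in TNG67. Right, on a log scale, normalized read counts by library of the root markers Lsi1, Lsi2, RCc3 and HKT1;5, which overlap, and of CAB-2 (Os01g0600900) and RbcS (Os12g0291100), which do not.

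Genes of lignin synthesis lay mostly below 0, by small amounts. Of 40 phenylpropanoid and monolignol enzymes, 29 had log2 fold changes below 0, 4 were lower and 1 was higher, and the median log2 fold change was -0.25. At adjusted p below 0.05 without a fold threshold, 17 were lower and 2 were higher, against 12.6% lower and 8.99% higher among all genes. Phenylalanine ammonia-lyase takes phenylalanine into this pathway. Its most abundant gene, Os02g0626100, had 80027, 71389 and 72813 in OE1, against 104331, 103061 and 92588 in TNG67, a log2 fold change of -0.42. A second gene for it, Os04g0518400, had 65.1, 37.4 and 44.9 in OE1, against 148, 129 and 203 in TNG67, a log2 fold change of -1.70. Cinnamyl alcohol dehydrogenase (Os09g0399800), which makes the monolignols, had 2279, 3079 and 2899.8 in OE1, against 6791, 7496 and 5550.5 in TNG67, a log2 fold change of -1.26 ± 0.14 (adjusted p = 0.000914, limma). The OE1 values of all 3 genes were below the TNG67 values. The count of lower genes was 2 without TNG67 replicate 3, and the 1 higher gene was not called without any 1 library.

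Laccases and class III peroxidases oxidize monolignols in the wall. Among 20 laccases and other multicopper oxidases 4 were lower and none was higher (median log2 fold change -0.46), and among 113 peroxidases 8 were lower and 2 were higher (median -0.19). The laccase-22 gene Os11g0708100 had 171, 211 and 234 in OE1, against 552, 465 and 792 in TNG67. Os01g0127000 and Os01g0127200, multicopper oxidases described for phosphate homeostasis, had 56.3, 110.0 and 82.4 in OE1, against 472, 418 and 521 in TNG67, and 2.21, 3.03 and 10.4 in OE1, against 75.0, 94.3 and 72.9 in TNG67. Peroxidase 12 (Os01g0962700) had 92.7, 92.9 and 113 in OE1, against 499, 632 and 591 in TNG67. In each of these 4 genes the groups were separate, and the log2 fold changes were -1.53, -2.54, -3.94 and -2.52. The most abundant peroxidase, Os04g0688100, did not pass the test (log2 fold change 0.18). The higher peroxidase count was 1 without any 1 library except OE1 replicate 2.

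Wall-loosening and polysaccharide lists differed in their share of called members. Expansins, which loosen walls of growing cells, had 3 lower (7.32%) and no higher genes among 41. Over all genes 3.07% were lower and 2.35% higher. The median log2 fold change of expansins was -0.31, and 31 of the 41 lay below 0. The count of lower expansins was 1 without TNG67 replicate 1 and 6 without TNG67 replicate 3. The most abundant expansin, the beta-expansin EXPB4 (Os10g0556100), did not pass the test at 0.07. Xyloglucan endotransglucosylases had no gene called by limma among 12 and a median of -0.56, with 1 higher and 3 lower at adjusted p below 0.05 alone. At an unadjusted p below 0.05 these counts were 1 and 4, against 8733 of all 25580 genes in either direction. Neither edgeR nor DESeq2 called any of the 12, and 1 was called without OE1 replicate 1 (higher) and 1 without OE1 replicate 2 (lower). Pectin enzymes and BURP-domain proteins had 4 higher and 7 lower genes among 80. The pectinesterase gene Os05g0361500 had 2392, 2227 and 2176 in OE1, against 1096, 1123 and 1050.0 in TNG67, a log2 fold change of 1.05 ± 0.06. The cellulose synthase family gene Os07g0552800 had 139, 196 and 143 in OE1, against 30.2, 19.1 and 39.7 in TNG67, a log2 fold change of 2.43, whereas the most abundant cellulose synthase, Os07g0424400, had -0.03.

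Other families of specialised metabolism differed in direction. Cytochromes P450 had 6 higher and 18 lower genes among 148 (median log2 fold change -0.20), but under the treat test 1 more gene was higher than lower. Among the higher ones Os08g0507702 had 189, 181 and 139 in OE1, against 22.4, 28.6 and 37.5 in TNG67, a log2 fold change of 2.50. Among the lower ones Os02g0185200 had 78.3, 132 and 70.9 in OE1, against 298, 321 and 504 in TNG67, 25.1% of the TNG67 mean. O-methyltransferases had 3 lower and no higher genes among 17, and 1 lower without TNG67 replicate 3. Salicylate-type carboxyl methyltransferases had 3 lower and no higher genes among 10. Glutathione S-transferases, which conjugate glutathione to reactive compounds, had 1 lower and no higher gene among 51, with 29 above 0 and a median of 0.05, with 2 lower without OE1 replicate 1 or OE1 replicate 2 and 1 higher and 2 lower without TNG67 replicate 3. Chalcone and stilbene synthases, which make the skeletons of flavonoids and stilbenoids, had 2 higher genes and 1 lower among 5. The chalcone synthase gene Os07g0214900 had 71.7, 80.8 and 83.4 in OE1, against 19.0, 22.3 and 11.8 in TNG67, and the bibenzyl synthase-like gene Os11g0566800 stood at 4.26 times its TNG67 mean. Both were separated between the genotypes, at log2 fold changes of 2.13 and 2.06.

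Among transcription factors, 77 were described as AP2/ERF, of which 5 were higher and 2 were lower. The median log2 fold change was -0.00447, with 38 genes above 0 and 39 below. The overexpressed gene is described only as a predicted protein and is not in this list. Os01g0313300, similar to EREBP-3, had 406, 497 and 406 in OE1, against 87.3, 64.7 and 62.2 in TNG67. Os07g0410700, similar to ethylene-responsive element binding protein 1, had 61.8, 68.6 and 35.5 in OE1, against 239.5, 230.0 and 193 in TNG67. The first was 6.11-fold higher, and the log2 fold changes were 2.60 ± 0.15 and -2.03 ± 0.22 (adjusted p = 3.09e-08 and 2.6e-05, limma). Os02g0764700 and Os03g0860100, similar to ethylene-responsive transcription factors 4 and 2, were higher at low levels. The most abundant AP2/ERF gene, Os03g0183000, had a log2 fold change of -0.08 and did not pass the test. Without OE1 replicate 1 the list held 3 higher genes and Os02g0764700 was not called (log2 fold change 2.21), and without TNG67 replicate 2 or TNG67 replicate 3 it held 1 lower gene.

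WRKY factors, many of which act in pathogen responses, had 6 lower genes and 1 higher among 70, and a median of -0.02. OsWRKY76 (Os09g0417600) and its neighbour Os09g0417800, both described as transcriptional repressors in pathogen defence, had 12.1, 10.1 and 5.22 in OE1, against 39.2, 36.0 and 60.1 in TNG67, and 97.1, 71.7 and 46.9 in OE1, against 159, 178 and 151 in TNG67. Os05g0322900, the benzothiadiazole-inducible factor of blast resistance, had 257, 259 and 227 in OE1, against 524, 497 and 552 in TNG67. Each OE1 library was below each TNG67 library in all 3, with log2 fold changes of -2.22, -1.22 and -1.08. Without OE1 replicate 3 Os09g0417800 had a log2 fold change of -0.95.

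MYB factors had 7 higher and 6 lower genes among 109, a balance that turned to more lower genes without OE1 replicates 1 or 2 and without TNG67 replicates 2 or 3. OsMYB91 (Os12g0572000), described for adaptive growth and salt tolerance, had 37.5, 65.6 and 46.9 in OE1, against 131, 151 and 148 in TNG67, a log2 fold change of -1.53. An OSMYB2-like gene, Os12g0175400, had 61.8, 55.5 and 59.5 in OE1, against 209, 159 and 153 in TNG67, a log2 fold change of -1.53. The MYB gene Os07g0137000 had 310.1, 229 and 372 in OE1, against 101, 106 and 98.7 in TNG67, a log2 fold change of 1.54. Its near neighbour in identifier, the homeodomain-like gene Os07g0136800, had 233, 222 and 267 in OE1, against 69.4, 75.3 and 61.1 in TNG67, a log2 fold change of 1.80. Without OE1 replicate 1 the MYB list held 4 higher genes.

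NAC factors, plant-specific regulators of development and senescence, had 6 higher and 2 lower genes among 66. At adjusted p below 0.05 alone this balance turned, with 11 higher and 13 lower. Os01g0816100 had 345, 285 and 365 in OE1, against 151, 164 and 163 in TNG67, and Os03g0624600 had 66.2, 69.7 and 88.7 in OE1, against 179, 135 and 159.8 in TNG67, at log2 fold changes of 1.04 and -1.07. These NAC counts were sensitive to single libraries, with 2 higher without OE1 replicate 1 or OE1 replicate 3, 4 lower without OE1 replicate 2, and 1 lower without OE1 replicate 1 or TNG67 replicate 1. Os01g0816100 stood at 0.97 without OE1 replicate 3, and Os03g0624600 at -0.99 without OE1 replicate 1 and -0.97 without TNG67 replicate 1. The bHLH list had 2 higher and 5 lower genes among 97. Its phytochrome-interacting factor-like member, Os01g0286100, had 78.3, 83.8 and 84.5 in OE1, against 30.2, 28.6 and 27.9 in TNG67, a log2 fold change of 1.48. Another, Os05g0199800, was nearly absent from OE1, with 4.41, 2.02 and 2.09 in OE1, against 75.0, 63.6 and 48.3 in TNG67 (log2 fold change -4.08). Without TNG67 replicate 3 that list had 4 higher genes.

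Genes of ABA synthesis and signalling, a pathway that the study followed in roots, were called in both directions. Of 11 aldehyde oxidases, which carry out the last step to ABA or oxidize other aldehydes, 1 was higher and 1 was lower. That was 9.09% in each direction, against 2.35% higher and 3.07% lower over all genes. The lower one was OsAO3 (Os07g0281700), at 12.1, 11.1 and 8.34 in OE1, against 36.9, 26.5 and 50.4 in TNG67. Its neighbour with the same description, Os07g0281800, had 253, 253 and 159.6 in OE1, against 367, 417 and 854 in TNG67, and was not called (log2 fold change -1.22, adjusted p = 0.104, limma). The most abundant aldehyde oxidase gene, Os03g0790900, was read 6474, 7329.8 and 6016 in OE1, against 4989, 5193 and 5745 in TNG67, a log2 fold change of 0.31, within the fold threshold. OsAO3 thus had the lowest level of these 3 named genes. DESeq2 and the fit of all 12 libraries called 2 aldehyde oxidases lower, with Os07g0281800 as the second.

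Elsewhere in the ABA lists, zeaxanthin epoxidase (Os04g0448900), an early enzyme of ABA synthesis, had 458, 428 and 470.4 in OE1, against 483, 421 and 515 in TNG67 and did not pass the test. Of 6 carotenoid cleavage and epoxycarotenoid dioxygenase genes 1 was lower (16.7%, against 3.07% of all genes) and none was higher. The lowest log2 fold change in that list was -2.25. Its median was -0.34, and 0.20 in the fit of all 12 libraries. Protein phosphatases 2C, the group that holds negative regulators of ABA signalling, had 2 higher (4.08%) and no lower genes among 49. None were called without OE1 replicate 3 or TNG67 replicate 2, and 1 was called without OE1 replicate 1 or TNG67 replicate 3. The list of ABA receptors and SAPK kinases held only 2 genes, neither called, and SAPK7 (Os04g0432000) had a log2 fold change of -0.26. Of 25 phospholipase genes, OsNPC3 (Os11g0593000), a non-specific phospholipase C, was lower at -1.17, and a phospholipase D gene, Os02g0120200, was higher. The phospholipase D gene had 134, 121 and 99.1 in OE1, against 23.5, 27.6 and 15.0 in TNG67, a log2 fold change of 2.40. Among 13 dehydrin and late embryogenesis abundant genes, which respond to ABA and water loss, 1 was lower and 1 was higher (7.69% each). The higher one, Os02g0564600, had 53.0, 73.7 and 79.3 in OE1, against 14.5, 11.7 and 12.9 in TNG67. The most abundant dehydrin, Os02g0669100, had a log2 fold change of 0.47, within the fold threshold but with separate groups. Without OE1 replicate 2 there were 2 lower phospholipase genes, and the lower late embryogenesis abundant gene was not called without OE1 replicate 2 or TNG67 replicate 2.

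Cytokinin response genes lay together below 0 without any passing the fold threshold. A-type response regulators are switched on by cytokinin and restrain its signalling. All 8 measured had log2 fold changes below 0, from -0.88 to -0.13, in all 8 the highest OE1 library was below the lowest TNG67 library (21.5% of all genes), and 6 were lower at an adjusted p from limma below 0.05 (12.6% of all genes). Os02g0557800, the most abundant, had 1014, 1091 and 977 in OE1, against 1558, 1507 and 1549 in TNG67. Os01g0952500 had 492, 606 and 516 in OE1, against 1059.9, 931 and 943 in TNG67. Os12g0139400 had 257, 289.7 and 222 in OE1, against 508, 449 and 457 in TNG67. No OE1 library reached a TNG67 level in these 3 genes, which differed by -0.58 ± 0.07, -0.86 ± 0.09 and -0.88 ± 0.11 on the log2 scale. Of 6 cytokinin oxidases, which break cytokinins down, 1 had an adjusted p below 0.05. It was Os08g0460600, higher in OE1 by a log2 fold change of 0.34. Over the 14 genes of both kinds limma called 0 with the fold threshold, as did edgeR and DESeq2. At an unadjusted p below 0.05, 1 was higher and 8 were lower, against 8733 of all 25580 genes in either direction.

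Jasmonate ZIM domain (JAZ) repressors, which hold back jasmonate-responsive transcription factors, lay mostly above 0. Of 12 genes 11 had log2 fold changes above 0, with a median of 0.30, and 1 was called in each direction. Os03g0180900 had 764, 601 and 603 in OE1, against 251, 277 and 348 in TNG67, a log2 fold change of 1.17 ± 0.13. The lower one, Os04g0395800, had 14.3, 10.1 and 11.5 in OE1, against 38.1, 30.7 and 22.5 in TNG67, a log2 fold change of -1.26, and was not called without TNG67 replicate 1 (-1.09). Without OE1 replicate 3 the list held 2 higher genes.

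**Figure D4:**
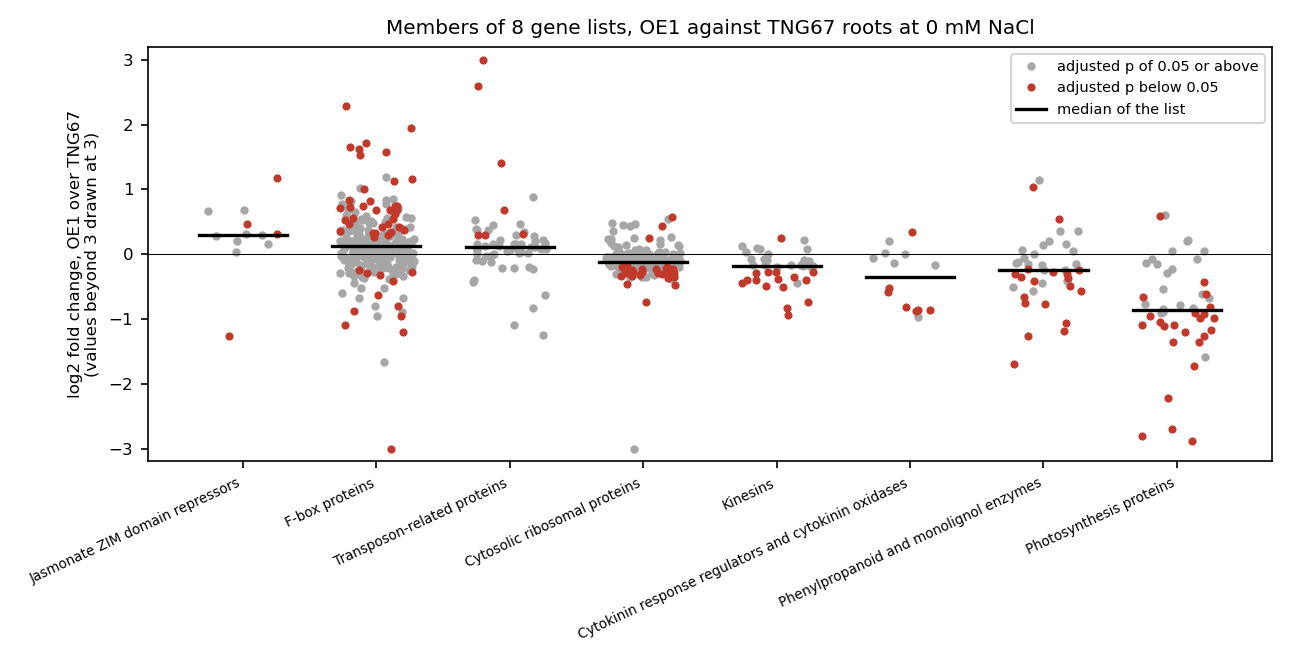
Log2 fold change (OE1 over TNG67, 0 mM NaCl) of each member of 8 gene lists, red where the adjusted p was below 0.05 and grey elsewhere, with a black line at the list's median. Medians run from 0.30 for JAZ repressors to -0.86 for photosynthesis proteins, and points beyond 3 in either direction are drawn at 3.

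Auxin, gibberellin and ethylene genes were called in both directions. Auxin response genes (Aux/IAA, ARF, SAUR and GH3) had 4 higher genes (5.56%) and 1 lower (1.39%) among 72. Over all genes these shares were 2.35% and 3.07%. Auxin response factor 1 (Os04g0664400) had 140.1, 91.9 and 130.4 in OE1, against 43.6, 66.8 and 37.5 in TNG67, and a SAUR gene, Os02g0769100, had 162, 158 and 142 in OE1, against 60.4, 77.4 and 66.5 in TNG67, at log2 fold changes of 1.29 and 1.17. At adjusted p below 0.05 alone this balance turned, with 7 higher and 14 lower. Of 18 auxin carrier genes 2 were lower (11.1%) and none was higher. An auxin efflux carrier gene, Os01g0802700, whose family moves auxin out of cells, was lower at 35.3, 28.3 and 38.6 in OE1, against 159, 156 and 202 in TNG67 (log2 fold change -2.31). Of 11 genes for GASA proteins and gibberellin oxidases 2 were higher (18.2%) and 1 was lower (9.09%). Their log2 fold changes ran from -1.15 to 2.91. At adjusted p below 0.05 alone 2 of these 11 were higher and 5 were lower, and without TNG67 replicate 3 more were called lower than higher. The gibberellin-inactivating enzyme gene OsGA2ox1 (Os05g0158600) was higher at 384, 309 and 433 in OE1, against 213, 188 and 147 in TNG67, a log2 fold change of 1.04 that was 0.93 without OE1 replicate 3 and 0.89 without TNG67 replicate 3. Of 11 ethylene synthesis genes 1 was called in each direction (9.09%). An ACC synthase (Os03g0727600) was higher at 1.03 and an ACC oxidase (Os02g0771600) lower at -1.17. The ACC synthase lost its call without OE1 replicate 1, OE1 replicate 2 or TNG67 replicate 2 (0.81 to 0.92) and with 12 libraries, and the ACC oxidase without TNG67 replicate 1 (-0.98). Without OE1 replicate 2 or TNG67 replicate 1 the auxin response list held no lower gene.

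The lists for nitrate and peptide transport, potassium and phosphate held more lower than higher called genes. Among 83 nitrate and peptide transporter genes 6 were lower (7.23%) and 1 was higher (1.20%), with a median log2 fold change of -0.11. Among 38 potassium genes 3 were lower (7.89%) and 1 was higher (2.63%), with a median of 0.01. Over all genes 3.07% were lower and 2.35% higher. The list of 47 phosphate homeostasis genes had 4 lower (8.51%) and 1 higher (2.13%) and a median of 0.02. Of the 4 lower ones only Os04g0186400 is described as a transporter. The multicopper oxidases Os01g0127000 and Os01g0127200 given above are among them. A high-affinity nitrate transporter gene, Os02g0112600, had 151, 150.4 and 159 in OE1, against 323, 285 and 393 in TNG67. The KUP-related potassium transporter gene Os08g0466200 had 14.3, 16.2 and 14.6 in OE1, against 99.6, 93.3 and 112 in TNG67. The potassium channel gene Os05g0428700, similar to ZMK2 of maize, had 6.62, 7.07 and 11.5 in OE1, against 47.0, 44.5 and 99.7 in TNG67. All 3 were lower in every OE1 library, at log2 fold changes of -1.10, -2.67 and -2.72. The most abundant potassium gene, the transporter gene Os04g0401700, had 0.04 and overlapping groups. The Pi transporter gene Os04g0186400 had 78.3, 89.8 and 78.2 in OE1, against 173, 167 and 212 in TNG67, a log2 fold change of -1.15. OsSPX-MFS1 (Os04g0573000), a vacuolar phosphate transporter, had 0, 3.03 and 2.09 in OE1, against 5.60, 7.42 and 8.58 in TNG67, and did not pass the test (adjusted p = 0.061, limma). Without TNG67 replicate 3 the nitrate gene Os02g0112600 had a log2 fold change of -0.98 and 4 nitrate and peptide genes were lower, while OsSPX-MFS1 was called without OE1 replicate 2 (-2.21), by limma-voom (-2.11) and with 12 libraries (-1.81). Without TNG67 replicate 2 there were 2 higher potassium genes. The 1 higher phosphate gene was not called without OE1 replicates 1 or 3 or TNG67 replicates 1 or 3.

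Iron and sugar transport genes included several that were higher. Nicotianamine synthase 3 (Os07g0689600), which makes the chelator nicotianamine that carries iron and zinc within the plant, had 1987, 2138 and 2187 in OE1, against 819, 706 and 709 in TNG67, a log2 fold change of 1.50 ± 0.07 (adjusted p = 6.39e-09, limma), and it was the most abundant of 17 iron and nicotianamine genes, of which 2 were higher and none was lower. The other, the metal-nicotianamine transporter gene Os02g0649900, had 17.7, 6.06 and 20.9 in OE1, against 2.24, 1.06 and 3.22 in TNG67, and was not called without OE1 replicate 1 or OE1 replicate 3 (2.03 and 1.92). A sucrose transporter gene, Os03g0170900, had 446, 371 and 575 in OE1, against 163, 197 and 157 in TNG67, a log2 fold change of 1.41. The SWEET3a gene Os05g0214300, for a bidirectional sugar transporter, had 4.41, 11.1 and 1.04 in OE1, against 123, 131 and 202 in TNG67, a log2 fold change of -4.87. MATE and sugar transporters together had 5 higher and 5 lower genes among 60. No aquaporin was called by limma among 21, with 0 higher and 4 lower at adjusted p below 0.05 alone. At an unadjusted p below 0.05 these counts were 0 and 7, against 8733 of all 25580 genes in either direction. By edgeR, by DESeq2 and without TNG67 replicate 3, 1 aquaporin was called lower. The most abundant, Os02g0666200, had 36751, 34291 and 37329 in OE1, against 37869, 36185 and 35879 in TNG67.

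Ribosomal protein and kinesin genes had no member called by limma, but most of them lay below 0. Of 240 cytosolic ribosomal proteins limma called none, 201 had log2 fold changes below 0, the median was -0.11, and 98.3% were within 0.5 of 0. At adjusted p below 0.05 alone 26 of them were lower (10.8%) and 3 were higher (1.25%), against 12.6% and 8.99% over all genes. At an unadjusted p below 0.05 these counts were 64 and 7, against 8733 of all 25580 genes in either direction. By DESeq2 and without TNG67 replicate 2, 1 was called lower, and edgeR called none. Kinesins, the microtubule motors of dividing and growing cells, had no called gene among 39 with any of limma, edgeR or DESeq2. Their median was -0.17. At adjusted p below 0.05 alone 15 kinesin genes were lower (38.5%) and 1 was higher (2.56%), against 12.6% and 8.99% over all genes. At an unadjusted p below 0.05 the kinesin counts were 17 and 1. In 20 of the 39 each OE1 library was below each TNG67 library, against 21.5% of all genes. Without OE1 replicate 1 or TNG67 replicate 1, 1 kinesin gene was called lower. OsACTIN1 (Os03g0718100), the internal control of the study's qPCR, had 1024, 1047 and 1190.2 in OE1, against 1437, 1380.1 and 1321 in TNG67. Its groups were separate, at a log2 fold change of -0.35, within the fold threshold. Whether this bears on the qPCR values was not tested. F-box proteins, which select targets for ubiquitination, went the other way. Among 272 of them 10 were higher (3.68%) and 3 were lower (1.10%), against 2.35% and 3.07% over all genes. Log2 fold changes were above 0 in 179 of them (65.8%), against 47.4% of all genes, and the median was 0.13. Os07g0196300 had 384, 342 and 365 in OE1, against 109.7, 112 and 121 in TNG67, and Os01g0824700 had 244, 221 and 220.1 in OE1, against 67.2, 85.9 and 75.1 in TNG67, at log2 fold changes of 1.66 and 1.58. Without TNG67 replicate 1 or TNG67 replicate 2 the F-box list held 1 lower gene.

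Heat shock proteins had 6 higher (3.30%) and 3 lower (1.65%) genes among 182, against 2.35% and 3.07% over all genes. Their median log2 fold change was -0.01. The HSP70 gene Os03g0277300 had 1231, 1252 and 1293 in OE1, against 346, 328 and 439 in TNG67. The small heat shock protein gene Oshsp17.3 (Os03g0266900) had 2062, 2025 and 1929 in OE1, against 707, 773 and 1139 in TNG67. The heat shock protein 26 gene Os03g0245800 had 143, 146 and 176 in OE1, against 36.9, 40.3 and 63.3 in TNG67. All 3 were higher in every OE1 library, at log2 fold changes of 1.77, 1.23 and 1.74, while the most abundant HSP70 gene, Os11g0703900, had -0.01. At adjusted p below 0.05 alone the list held 17 higher and 23 lower genes, and without TNG67 replicate 2 or TNG67 replicate 3 it held 1 lower gene by the main rule. A catalase gene, Os03g0131200, had 158, 167 and 154 in OE1, against 86.2, 67.8 and 80.4 in TNG67, a log2 fold change of 1.03 that was just under the threshold without OE1 replicate 2 and 0.93 without TNG67 replicate 2.

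The largest differences were genes read in one genotype and hardly at all in the other, most of them uncharacterised. Among genes with 50 or more reads in each library of one genotype and none in the other, 7 were read in OE1 and 1 in TNG67, and without TNG67 replicate 3 the number in OE1 was 11. Os07g0442800, a conserved hypothetical protein, had 3367, 3563 and 3007 in OE1, against 0, 0 and 0 in TNG67, at least 1019-fold higher when TNG67 is set at a floor of 3 reads per library. Os06g0658400, similar to the dimerisation domain protein of hAT transposons, had 781, 769 and 917 in OE1, against 0, 0 and 0 in TNG67, at least 253-fold higher. Os08g0496700, a Myb/SANT-like domain gene, had 216, 198 and 239 in OE1, against 0, 0 and 0 in TNG67, at least 66.9-fold higher. The others were Os10g0432200 (at least 121-fold), Os07g0511301 (at least 98.0-fold), Os04g0397901 (at least 45.2-fold) and Os09g0368900 (at least 19.3-fold). In the other direction Os06g0513050 had 0, 0 and 0 in OE1, against 173, 129 and 77.2 in TNG67, at least 40.1-fold lower in OE1. With 1 or more reads in place of 50, 27 genes were read in OE1 only and 6 in TNG67 only.

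**Figure D5:**
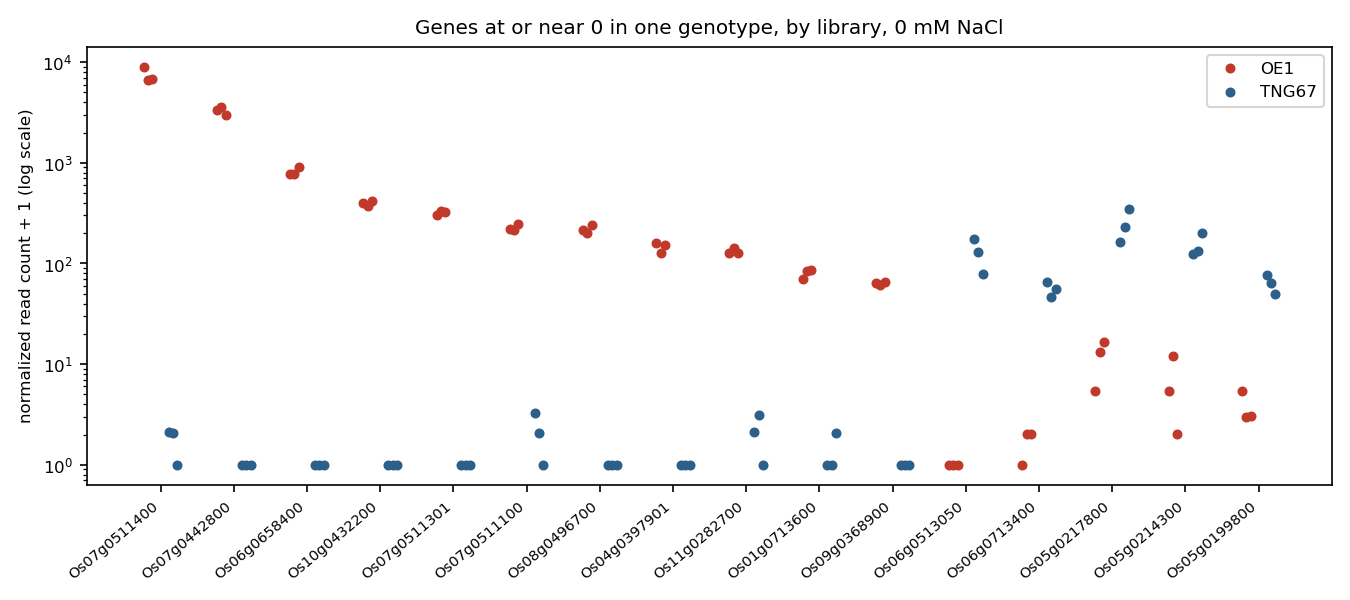
Normalized read count plus 1, on a log scale, by library for 16 genes at or near 0 in one genotype at 0 mM NaCl, with OE1 in red and TNG67 in blue. The first 11 genes are high in OE1 and the last 5 in TNG67, and a point at 1 is a library with no read.

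Some of these genes had neighbouring identifiers. Os07g0511100 had 221, 215 and 243 in OE1, against 2.24, 1.06 and 0 in TNG67, and Os07g0511400 had 8977, 6704 and 6836 in OE1, against 1.12, 1.06 and 0 in TNG67, on either side of Os07g0511301, and all 3 were hypothetical proteins. A regulator near 0 in TNG67 was the B3-domain gene Os01g0713600, described for flowering time, at 68.4, 82.8 and 85.5 in OE1, against 0, 0 and 1.07 in TNG67. Another was the homeodomain-like gene Os11g0282700, at 125, 142 and 127 in OE1, against 1.12, 2.12 and 0 in TNG67. On chromosome 5 a run of genes was lower. Besides the SWEET3a gene Os05g0214300 it held the pectin lyase fold gene Os05g0213900, at 900.4, 946 and 933 in OE1, against 2198, 2295 and 2808 in TNG67, and the BURP-domain gene Os05g0217800, at 4.41, 12.1 and 15.6 in OE1, against 163, 231 and 345 in TNG67. Their log2 fold changes were -1.38 and -4.48, and 2 more BURP-domain genes, Os05g0215000 and Os05g0217700, and the NB-ARC gene Os05g0216950 were also lower, of which Os05g0217700 lost its call without OE1 replicates 1 or 2 or TNG67 replicates 2 or 3 (-1.11 to -0.94) and with 12 libraries.

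Called genes had called neighbours more often than other genes did. Over the 13726 genes that could be placed in RefSeq gene order, 16.0% of the 407 placed lower genes had an adjacent lower gene, against 5.48% of the other genes, and 7.27% of the 220 placed higher genes had an adjacent higher gene, against 3.11%. Of the 35 adjacent pairs of lower genes, 8 shared a description. The difference in these shares was not tested, because neighbouring genes are not independent.

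The 658 genes that the 150 mM NaCl table does not list were low, with a median normalized count of 7.03, and 21.7% of them were called, 7.45% higher and 14.3% lower, against 4.99% called among the 24922 genes listed at both levels. The lowest mean over the 6 libraries in the 0 mM table was 2.51, and a gene near that level can be listed through the genotype in which it is high, so these shares are a description of the listed genes and are not read as a difference between the tables. The higher ones included Os11g0262600, a conserved hypothetical protein, at 99.3, 118 and 65.7 in OE1, against 8.95, 2.12 and 2.15 in TNG67. Another was Os03g0335100, a RING/FYVE/PHD-type zinc finger gene, at 15.4, 18.2 and 8.34 in OE1, against 0, 0 and 0 in TNG67. The lower ones included Os05g0214300 and Os05g0216950, given above, and Os06g0302000, similar to BURP domain-containing protein 11, at 0, 0 and 0 in OE1, against 11.2, 9.54 and 41.8 in TNG67. Uncharacterised genes over the whole table were near balance, with 222 higher and 191 lower among 5955 hypothetical proteins and 17 higher and 19 lower among 659 non-protein coding transcripts (10 higher without OE1 replicate 1). Transposon-related proteins had 3 higher and no lower genes among 58 (1 lower without OE1 replicate 2), led by Os06g0658400 and followed by a retrotransposon gag gene, Os08g0315200, at 62.9, 43.4 and 68.8 in OE1, against 5.60, 6.36 and 17.2 in TNG67, and a Karma-like retrotransposon gene, Os05g0296800, at 268, 253 and 216 in OE1, against 85.1, 67.8 and 131 in TNG67.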

How the data were processed

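RNA-seq libraries of roots were compared between 3 OE1 and 3 TNG67 samples at 0 mM NaCl, grouped by the sample labels. Per the submitters' processing notes, Trimmomatic 0.38, HISAT2 2.1.0 and the genome build IRGSP-1.0 were used, and the counting tool and size factor method are not given in the sources used here. The deposited values are a normalized signal, read counts that the authors divided by one size factor per library. Whole reads were recovered from them (tolerance 0.001), which gave 16326661 to 18188746 reads per OE1 library and 16473262 to 17303572 per TNG67 library, so the depth of each group was similar.

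Every gene of the 0 mM NaCl table (25580) was fitted with limma 3.58.1 in R 4.3.3 on log2(value + 1), its trend and robust options on, and p-values were adjusted by Benjamini-Hochberg over all genes. The thresholds were those of the study's methods. No filter on low values was applied, and an exact permutation of 3 against 3 libraries cannot go below p = 0.1. The script was tested on simulated data. Alternatives were library size scaling, edgeR 4.0.16 (636 higher, 755 lower on the recovered reads), DESeq2 1.42.0, limma-voom, a pseudocount of 0.1, a filter on a mean of 20, all 12 libraries, no fold threshold, treat, a replicate block, and leaving out each library.

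Gene lists were built from words in the deposited descriptions and carry a few unrelated members. Members and lists were chosen with earlier results of these data known. Named were the genes that the study identifies, up to 4 called genes per list and direction by log2 fold change (groups separate, higher group averaging 50 or more), each list's most abundant gene, up to 5 genes per direction read in one genotype only, and up to 3 per direction absent from the 150 mM NaCl table. Chosen after their values were seen were Os04g0179700, Os04g0179200, Os11g0474800, Os11g0474900, Os06g0570100, Os08g0168400, Os12g0491800, Os12g0555000, Os12g0555500, Os10g0335000, Os08g0508800, Os08g0140500, Os08g0140300, Os12g0291100, Os12g0291400, Os12g0292400, Os11g0707000, Os02g0764700, Os03g0860100, Os07g0281800, Os01g0952500, Os12g0139400, Os04g0395800, Os02g0649900, Os04g0397901, Os09g0368900, Os07g0511100 and Os05g0215000. Gene order came from RefSeq (assembly ASM3414082v1) and was used only for neighbours. No sequence is shown.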

Additional observations from a re-analysis of the deposited data

How the results depend on the processing

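Of 195 named genes that were called, none changed direction under any alternative in which it was fitted. The treat test kept 62 of them past its threshold, and each other alternative left 0 to 20 uncalled. Against 600 higher and 786 lower genes, 2300 and 3227 passed without a fold threshold and 112 and 67 passed treat. Called genes with separate groups, 1379, numbered 5442 without a fold threshold and 179 under treat. Lower terpene genes numbered 3 under treat and lower pathogenesis-related genes 2. Lower dirigent genes numbered 12 without a fold threshold and 2 under treat, and lower photosynthesis genes 9 with 12 libraries, 23 without a fold threshold and 3 under treat. Leaving out each library in turn gave 461 to 621 higher genes, 609 to 809 lower genes and 1142 to 1350 with separate groups. The same gave 6 to 10 lower terpene genes, 6 to 10 lower pathogenesis-related genes, 4 to 7 lower dirigent genes, 9 to 17 lower photosynthesis genes, 7 to 11 genes read in OE1 only and 1 read in TNG67 only. With the filter on a mean of 20, 408 genes were higher and 544 lower among 22050 tested. The replicate numbers do not pair the samples (correlations of same-numbered deviations -0.057, -0.120 and -0.024), and with the replicate block 579 genes were higher and 736 lower. Other scalings moved the median of all genes by at most 0.0234 on the log2 scale. Low levels limit the precision of many called genes.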
